A study of Mus musculus with 9 samples.

Results

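The genes described here encode matricellular proteins: Thbs1, Thbs2 and Thbs3 (thrombospondins), Postn (periostin), Sparc (osteonectin), Tnc (tenascin C) and Spp1 (osteopontin). Members were all probe sets on the arrays whose only gene symbol in the platform annotation was 1 of these 7 symbols, whatever their signal. The rule gave 12 of 45037 probe sets, for 6 of the 7 genes, and 11 of the 12 passed the filter of a mean signal of at least 100 and were among the 19090 probe sets tested. Spp1 was not analysed here.

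The study hybridised total RNA from 9 cultures of mouse embryonic fibroblasts, all isolated at E13.5 and spontaneously immortalised, to 3′ expression arrays. Of these, 3 arrays carried RNA of cells from Suv420h1 knockout embryos, which lack a histone H4 lysine methyltransferase: 1 of untransduced Suv420h1 -/- cells, 1 of cells given GFP, and 1 of cells reconstituted with a Suv420h1-GFP fusion. The other 6 arrays carried RNA of wild-type cells expressing GFP, LacZ, full-length PREX2 (a Rac exchange factor), or PREX2 with a premature stop (K278*, E824* or Q1430*). The labels name a lentivirus for the PREX2 mutants and do not separate lines or embryos within a genotype, so genotype and line of origin cannot be told apart. They do not say whether cultures were independent, so each p-value speaks to the scatter among these arrays, which may be technical. With 1 to 3 arrays a group, the number of arrays sets the precision.

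Matricellular proteins are secreted into the extracellular matrix, where most of them regulate cell contact, growth factor availability and matrix assembly rather than bear load. Thrombospondins 1 and 2 are trimers that bind CD36, CD47 and integrins, inhibit angiogenesis and share a set of type 1 repeats, whereas thrombospondin 3 is a pentamer without them; thrombospondin 1 also activates latent TGF-beta. Periostin, SPARC and tenascin C are made by fibroblasts of growing and healing connective tissue and bind collagens, fibronectin or integrins.

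The transcription start regions of Thbs2 and Thbs3 are shown because over all 9 arrays these paralogs were called in opposite directions between the lines. Against the wild-type GFP and LacZ arrays alone, Thbs3 was not called. Each line holds the 250 bases before a RefSeq start site on GRCm38.p6, 5′ to 3′ on the strand of the gene, with matches to searched motifs in capitals. The Thbs2 window is chr17:14694263-14694512 on the minus strand and the Thbs3 window chr3:89214930-89215179 on the plus strand.
Thbs2: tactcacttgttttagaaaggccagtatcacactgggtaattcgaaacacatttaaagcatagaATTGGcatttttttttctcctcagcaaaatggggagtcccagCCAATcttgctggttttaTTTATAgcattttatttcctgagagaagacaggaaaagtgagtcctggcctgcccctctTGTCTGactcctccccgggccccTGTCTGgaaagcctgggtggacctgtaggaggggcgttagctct
Thbs3: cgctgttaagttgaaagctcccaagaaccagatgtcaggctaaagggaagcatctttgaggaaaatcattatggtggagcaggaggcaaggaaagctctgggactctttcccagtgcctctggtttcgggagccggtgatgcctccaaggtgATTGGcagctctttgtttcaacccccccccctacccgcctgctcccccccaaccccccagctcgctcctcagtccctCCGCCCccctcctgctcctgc
The Thbs2 window held 2 matches to the CCAAT box (CCAAT), 1 to the TATA box (TATAAA, on the opposite strand, 126 to 121 bases before the start) and 2 to the SMAD motif (CAGACA, both on the opposite strand). These motifs occurred on either strand in 33.8%, 12.4% and 17.1% of all 32851 promoter windows of this length. The Thbs3 window held 1 CCAAT match and 1 GC box match (GGGCGG), both on the opposite strand, and the GC box occurred in 32.7% of all windows. GC content was 46.8% for Thbs2 and 58.8% for Thbs3. Searches for AP-1 (TGANTCA), EGR1 (GCGGGGGCG), an E-box (CACGTG), RUNX (TGTGGT) and the CArG box gave no match in either window. A match is a description of these letters only.

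The targeted gene checked the labels of the null line, and expression of the PREX2 constructs was not tested. At probe set 1451817_at for Kmt5b, the current symbol of Suv420h1, the signal was 8.85 in untransduced null cells, 17.3 in null cells with GFP and 150.3 in reconstituted cells, against 118 to 182 in the 6 wild-type arrays, so the 3 labels of the null line were borne out there. The other 4 Kmt5b probe sets did not separate the null arrays from the reconstituted array in this way. At 1455171_at the null line was the higher one, with 536 untransduced, 462 with GFP and 554 after reconstitution, against 221 to 338 in the wild-type arrays. Fibroblast markers Col1a1, Col1a2, Vim and Pdgfrb were bright on all 9 arrays. Thy1, another fibroblast marker, differed between the null line and wild-type cells with GFP or LacZ by -5.47 on the log2 scale (adjusted p = 0.000409, limma). Of all 14 fibroblast markers, each of them tested, 0 were higher and 2 lower (Thy1 and Prrx1) over all 9 arrays, with a median of -0.38. Their summed signals were 137913 to 149482 on the null-line arrays and 147420 to 211161 on the wild-type arrays. The Prrx1 call ended without the untransduced null array. For scale, with 1 probe set per gene, 1699 of all 10177 tested genes were called higher and 1812 lower over all 9 arrays. Marker lists of other cell types moved in both directions between the lines. Of 6 cartilage markers 2 were tested, and over all 9 arrays 1 was higher in the null line (Col2a1, at 4.01) and 1 lower (at -0.50); the summed signal of the list was 1015 to 1557 on the null-line arrays and 705 to 864 on the wild-type arrays, and the cartilage protein gene Matn1 was dim in both, at 3.91 to 20.1 and 6.79 to 39.0. Of 8 muscle markers 6 were tested and 4 were lower and 0 higher over all 9 arrays, with a median of -1.21 and sums of 33384 to 37794 against 43691 to 52650.4. Of 8 osteoblast markers the 1 tested, Phex, was lower at -1.96, with sums of 142 to 166 against 250.3 to 490.5. The endothelial, macrophage and epithelial lists had 2, 3 and 2 tested genes, with 1 higher and 1 lower, 1 lower, and 1 lower. Of their defining genes, Pecam1, Cdh5, Ptprc and Cdh1 read at most 54.6 on all arrays and Adgre1 at most 86.2. The epithelial gene Epcam was brighter, at 255 to 432 on the null-line arrays and 162 to 301 on the wild-type arrays. The part of these genes in the members' differences was not tested. In bulk RNA, fewer cells of a type and less RNA per cell cannot be told apart.

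Thrombospondins 1 and 2 were higher, and over all 9 arrays thrombospondin 3 was lower, in the null line. Thbs2, on chromosome 17, showed the widest gap of all members, and its 3 probe sets gave the same picture. At 1447862_x_at, whose suffix marks probes that can also match other transcripts, the MAS5 signal was 8715 in untransduced null cells, 7977 with GFP and 8302 after reconstitution. The wild-type arrays read 424 with GFP, 1042 with LacZ, 1144 with full-length PREX2, 1813 with K278*, 1053 with E824* and 1189.9 with Q1430*. Every null-line array exceeded every wild-type array, and K278* was the highest and GFP the lowest of the wild-type line.

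The 2 other Thbs2 probe sets repeated that order at its ends. At 1422571_at the null-line signals were 7574, 7364 and 8532 (untransduced, GFP, reconstituted), against 528 (GFP), 1272 (LacZ), 1246 (full-length), 1640.1 (K278*), 1149.5 (E824*) and 1252 (Q1430*). At 1450663_at they were 7838, 8105 and 8212, against 417, 954, 988, 1445, 895 and 1058 in the same wild-type order. LacZ, full-length PREX2, E824* and Q1430* lay close together, and GFP lay below them at each Thbs2 probe set.

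Null cells without the fusion (n = 2) were 12.1-fold above wild-type cells with GFP or LacZ (n = 2) at 1447862_x_at, a log2 change of 3.60 with SE 0.40 (adjusted p = 0.00148, limma). The change was 8.85-fold at 1422571_at (adjusted p = 0.0017, limma) and 12.2-fold at 1450663_at (adjusted p = 0.000951, limma). Folds are on the scale of log2(signal + 25), which understates changes of dim probe sets. Over all 3 null-line arrays against all 6 wild-type arrays, the changes of the 3 probe sets were 8.12-, 7.06- and 8.91-fold (adjusted p = 0.000451, 0.000398 and 0.000248, limma). In that comparison each group mean within a line weighed the same, so the lone reconstituted and full-length PREX2 arrays weighed more than any other array. Without the wild-type GFP array the first of these comparisons gave 2.97 at 1447862_x_at on the log2 scale, and without the LacZ array 4.22, and both passed the test.

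Thbs1, on chromosome 2, encodes the platelet and stromal thrombospondin. At 1460302_at the signal was 17216 in untransduced null cells, 19001 with GFP and 16218 after reconstitution. The wild-type arrays read 4260.3 (GFP), 9738 (LacZ), 7335 (full-length), 7265 (K278*), 8417 (E824*) and 8436 (Q1430*), so the lines did not overlap. The second probe set, 1450377_at, read 6079, 7263 and 5719 in the null line against 795 (GFP), 1813 (LacZ), 1439 (full-length), 1386 (K278*), 2233 (E824*) and 1878 (Q1430*).

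Against the GFP and LacZ arrays, the 2 null-line arrays without the fusion differed at Thbs1 1460302_at by a log2 change of 1.49 with SE 0.33 (adjusted p = 0.0204, limma). At 1450377_at the change was 2.44 with SE 0.37 (adjusted p = 0.00518, limma). The first of these calls ended without the untransduced null array (1.56, adjusted p = 0.097, limma), without the null GFP array (1.41, adjusted p = 0.13, limma) and when only the 4 arrays compared were fitted (adjusted p = 0.0687, limma). Without the null GFP array, 1450377_at also lost its call, at 2.31. Across all 9 arrays the null line was 2.36-fold higher at 1460302_at (adjusted p = 0.00838, limma) and 4.17-fold higher at 1450377_at (adjusted p = 0.00167, limma), and these calls held without any single array.

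**Figure D1:**
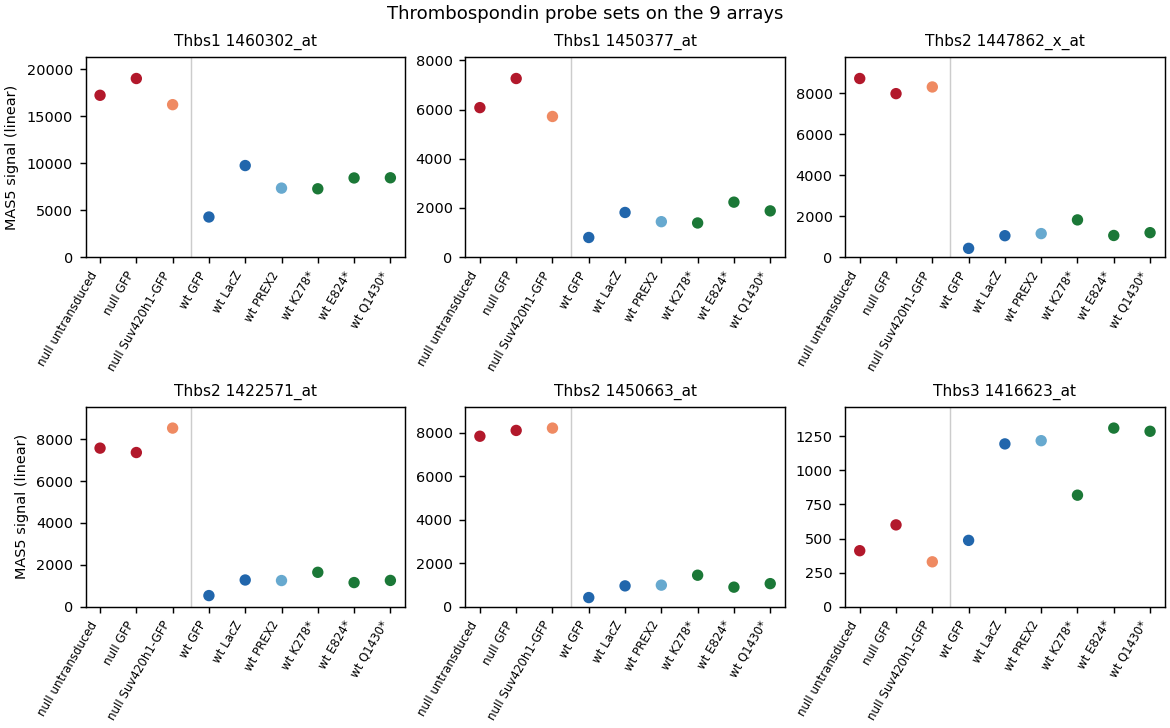
MAS5 signal on a linear axis of each thrombospondin probe set, with 1 point for each of the 9 arrays. Null-line cells are red and the reconstituted array orange, wild-type GFP and LacZ blue, full-length PREX2 light blue and truncated PREX2 green. The null line sits at 7364 to 8715 at the 3 Thbs2 probe sets, above all wild-type arrays, whose highest value is 1813.

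Thbs3, on chromosome 3, encodes a pentameric thrombospondin of cartilage and other connective tissue and had 1 probe set, 1416623_at. Its signal was 410.5 in untransduced null cells, 599.9 with GFP and 329 after reconstitution, against 486 (GFP), 1194 (LacZ), 1218 (full-length), 818 (K278*), 1310.4 (E824*) and 1287 (Q1430*). The lines overlapped at 1 point, since the null GFP array lay above the wild-type GFP array. Over all 9 arrays Thbs3 was 2.42-fold lower in the null line (adjusted p = 0.0201, limma). Its log2 change was -1.27 with SE 0.32, in which the reconstituted array, the lowest, weighed most. That call ended without the untransduced null array (-1.14, adjusted p = 0.0722, limma) and without the reconstituted array (-0.99, adjusted p = 0.0734, limma). Against the GFP and LacZ arrays alone it did not pass (-0.60, SE 0.42, adjusted p = 0.359, limma), and this value was -1.23 without the wild-type GFP array (adjusted p = 0.048, limma) and 0.03 without LacZ.

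Periostin and SPARC did not separate the lines. Postn, on chromosome 3, encodes a collagen- and integrin-binding protein. Probe set 1423606_at read 23897, 24777 and 19315 in the null line (untransduced, GFP, reconstituted) against 17331 (GFP), 27701 (LacZ), 26676 (full-length), 22878 (K278*), 28325 (E824*) and 26736 (Q1430*). The lines overlapped, and the lowest array of each was the reconstituted one and the wild-type GFP one. The change against GFP and LacZ was 0.15 on the log2 scale, with a 95% interval of -0.34 to 0.64 (adjusted p = 0.653, limma). Without the LacZ array it was 0.49 and passed, and without the wild-type GFP array it was -0.19. Over all 9 arrays it was -0.19 (adjusted p = 0.389, limma), and -0.30 without the wild-type GFP array, which passed.

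Sparc, on chromosome 11, encodes a collagen chaperone that binds calcium, and had 2 bright probe sets and 1 dim one. At 1416589_at the null-line arrays read 29905, 31282 and 28706, and the wild-type arrays 25371 (GFP), 32470.5 (LacZ), 31554 (full-length), 25911 (K278*), 34932 (E824*) and 32190.4 (Q1430*). At 1448392_at they read 13675, 14845.5 and 12472, against 8976, 14058, 12927, 10986, 15838 and 14327 in that order. Both probe sets overlapped between the lines and had GFP and K278* as their lowest wild-type arrays. The dim probe set 1458204_at read 63.1 to 149 over the 9 arrays and did not follow the others, with a Pearson r of -0.09 with 1416589_at over 9 arrays, against 0.93 between the bright ones; these points share their arrays. None of the 3 passed in either comparison of the lines, and the change at 1416589_at was 0.09 against GFP and LacZ (adjusted p = 0.736, limma).

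Tnc, on chromosome 4, encodes a multi-armed glycoprotein of developing and wounded tissue, and its 2 probe sets differed. At 1416342_at the null line read 2291 untransduced, 2113 with GFP and 1472 after reconstitution, and the wild-type line 1425 (GFP), 2043 (LacZ), 1648 (full-length), 1793 (K278*), 1785 (E824*) and 1622 (Q1430*). Null cells without the fusion were above both vector controls, by 0.36 on the log2 scale (adjusted p = 0.204, limma), a change that was 0.62 and passed without the LacZ array. The dim probe set 1456344_at had a mean signal of 79.1 and was below the filter. It read 196, 199.8 and 167 in the null line and 10.7 to 55.3 in the wild-type line, which did not overlap, and with no filter it was 4.58-fold higher in the null line than in the vector controls (adjusted p = 0.0127, limma). Over 9 arrays the 2 probe sets had a Pearson r of 0.46, and which transcripts each detects was not tested.

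**Figure D2:**
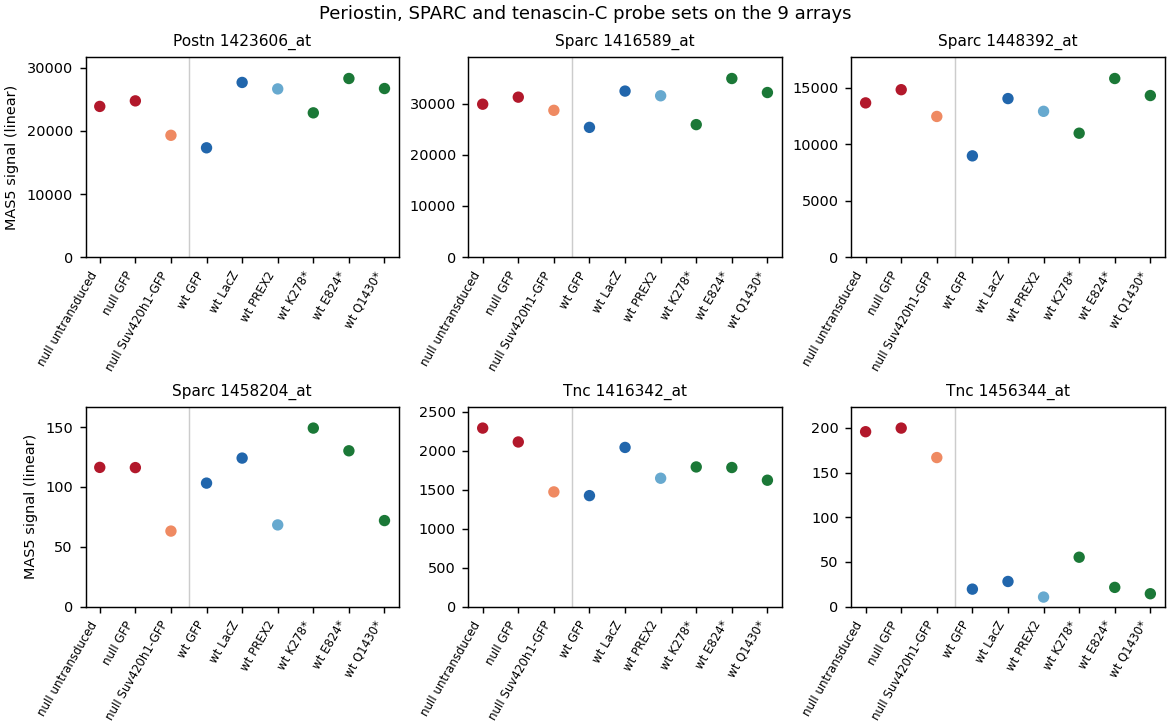
MAS5 signal on a linear axis of the Postn, Sparc and Tnc probe sets, with 1 point for each of the 9 arrays. Points are coloured by line and construct as for the thrombospondins. The lines overlap at Postn and at all 3 Sparc probe sets and separate at the dim Tnc probe set 1456344_at, whose wild-type values stay at or below 55.3.

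In counts, 5 of the 11 tested member probe sets were called in the null line against the vector controls, all higher, where 19.7% of all 19090 probe sets were called and 10.7% were called higher. These were the Thbs1 and Thbs2 probe sets, so the count stands for 2 genes. It was 3 without the null GFP array and 7 without LacZ. The groups did not overlap at 6 of the 11, all higher, against 30.7% of all probe sets. The members' median change over the 11 probe sets was 0.36 on the log2 scale and that of all tested probe sets 0.00. With 1 probe set per gene the members' median was 0.26. In the comparison of all 9 arrays 6 of 11 were called, 5 higher and 1 lower, where 34.2% of all probe sets were called, 18% higher and 16.3% lower. The groups did not overlap at 5 of the 11, all higher, against 21.4% of all. Here the members' median change was 0.09, against 0.01 for all tested probe sets, and 0.03 with 1 probe set per gene. Both comparisons use the untransduced and GFP null arrays and the wild-type GFP and LacZ arrays, so the second is no separate evidence for the first.

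**Figure D3:**
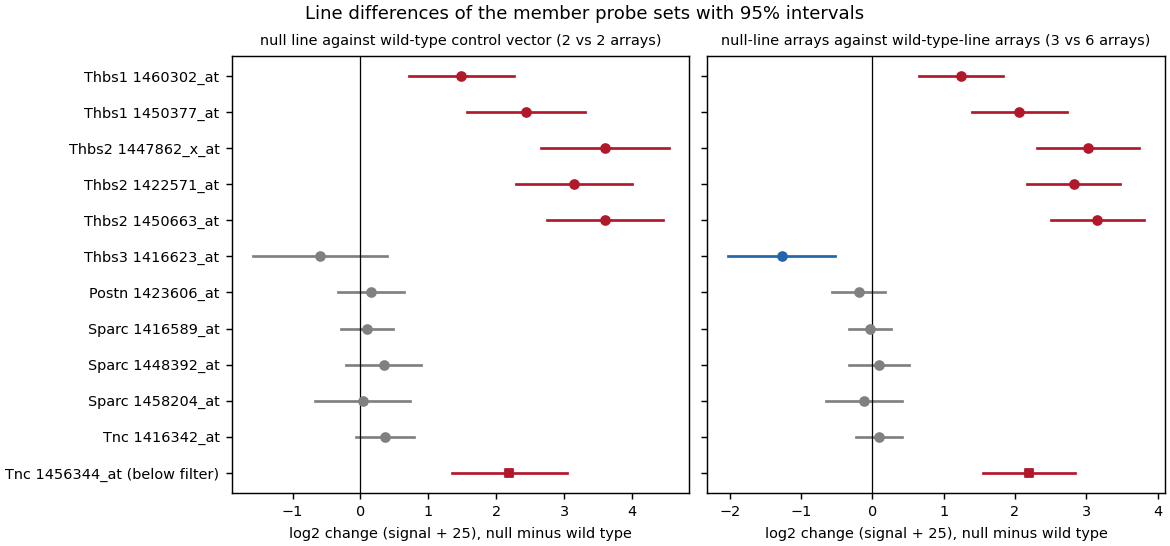
Log2 change of each member probe set between the null line and the wild-type vector controls, and between all 3 null-line and all 6 wild-type arrays, with 95% intervals. Red points are higher and blue points lower at an adjusted p below 0.05, grey points were not called, and the square marks the probe set below the filter. The Thbs2 probe sets lie at 2.82 to 3.60, and the Postn and Sparc intervals include 0.

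The reconstituted array lay above every wild-type array at Thbs1 and Thbs2, as the other null-line arrays did. At Thbs2 1447862_x_at it differed from the 2 other null-line arrays by -0.0061 on the log2 scale, with a 95% interval of -1.16 to 1.15, and at Thbs1 1460302_at by -0.16 (-1.10 to 0.78). Thbs3 differed by -0.56, Postn by -0.33, Sparc 1416589_at by -0.09 and Tnc 1416342_at by -0.57, with a 95% interval of -1.09 to -0.05 for Tnc. None of the 11 probe sets passed in limma, where 0% of all probe sets did. Tnc 1416342_at was the 1 member at an unadjusted p below 0.05 (unadjusted p = 0.0347, limma), against 3.25% of all probe sets. With 1 reconstituted array, a difference of that array from the line cannot be told apart from the fusion.

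Among the wild-type arrays the PREX2 constructs gave no called member. The 3 truncated constructs were set against GFP and LacZ, and Thbs2 1447862_x_at was 0.95 higher on the log2 scale, with a 95% interval of 0.09 to 1.81 (adjusted p = 0.844, limma). Here 0 of 11 probe sets passed, where 0.00524% of all did, and 2 of 11, both of Thbs2, had an unadjusted p below 0.05 in limma, against 2.82% of all. That Thbs2 difference was 0.33 without the wild-type GFP array, 1.58 without LacZ and 0.73 without K278*. Thbs1 1460302_at differed by 0.31, and without the LacZ array by 0.91, which passed.

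Full-length PREX2 against GFP and LacZ gave 0 called members of 11 in limma and 0 at an unadjusted p below 0.05, where 0% and 1.41% of all probe sets were. The truncated against the full-length constructs likewise gave 0 and 0, with 0% and 1.26% of all probe sets. Thbs2 1447862_x_at differed by 0.76 in the first of these (95% interval -0.40 to 1.91) and by 0.20 in the second (-0.89 to 1.28). The truncated and full-length comparisons share the vector controls. K278*, the shortest product, had the highest Thbs2 of the wild-type line at all 3 probe sets, and its Thbs3, Postn and bright Sparc signals were the second lowest. This single array was also second lowest of the wild-type line in the mean log2 signal of 14 fibroblast markers, at 12.08. In that of 13 cell-cycle genes it was second highest, at 11.97. The part of these genes in the K278* signals was not tested.

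The wild-type GFP array was the lowest of the 6 wild-type arrays at 10 of the 11 tested member probe sets, where it was lowest at 32.9% of all. The exception was the dim Sparc 1458204_at. LacZ exceeded GFP by more than 2-fold at 6 of the 11, where 5.09% of all probe sets did, and the members' median difference was 1.15 on the log2 scale against 0.03 for all. These 6 were the Thbs1, Thbs2 and Thbs3 probe sets. Over all 9 arrays Thbs1 and Thbs2 were called higher and Thbs3 lower in the null line. With these signals moved the fibroblast marker list, whose 14 genes averaged 11.6 in log2 signal on the GFP array and 12.7 on LacZ. The 13 cell-cycle genes moved the other way, with a mean of 12.2 on GFP and 11.5 on LacZ, and summed signals of 88558 and 56109. Their part in the difference was not tested.

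**Figure D4:**
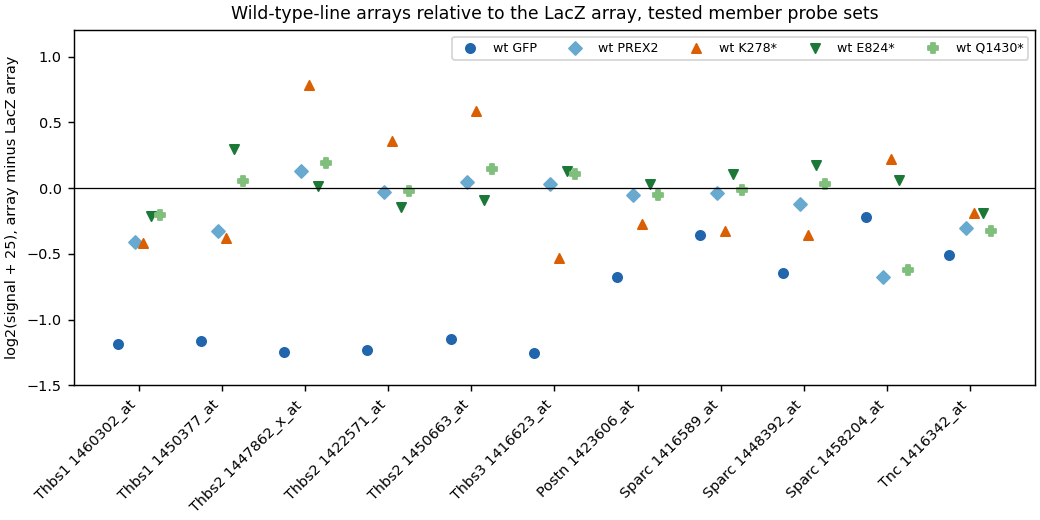
Difference in log2(signal + 25) from the LacZ array for the 11 tested member probe sets, with 1 point for each of the other wild-type arrays, marked by construct. The GFP points lie below all others at 10 of the 11 probe sets.

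Genes that work with the members were compared by lists of other matricellular proteins, receptors, collagen partners, TGF-beta genes and proteases, with 1 probe set per gene. In the null line against the vector controls, 1042 of 10177 genes were called higher and 1019 lower in all, and over all 9 arrays 1699 were higher and 1812 lower. Of 14 other matricellular genes tested, 4 were higher and 1 lower, with a median change of 0.77. Ccn1 (Cyr61), an integrin ligand, was higher by 3.20 and Smoc2, a SPARC relative, by 2.53, and Tgfbi, a periostin paralog, was lower, at -3.19 (adjusted p = 0.000372, 0.0217 and 0.00511, limma). The Smoc2 call ended without the untransduced null array, without the null GFP array and without the wild-type GFP array (adjusted p = 0.119, 0.115 and 0.0632, limma). Of the 14, 8 were higher and 2 lower over all 9 arrays.

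Of 17 receptors tested, 6 were higher in the null line and 1 lower. Cd47, a receptor of thrombospondin 1, was the lower one, at -1.14 (adjusted p = 0.00209, limma). Egfr, to which tenascin repeats bind, was higher by 1.89 and Itgb5, an integrin chain that pairs with the periostin-binding alpha V, by 1.08. Cacna2d1, the gabapentin receptor that thrombospondins bind, was higher by 0.89, a call that ended without the untransduced null array (adjusted p = 0.062, limma) and without the null GFP array (adjusted p = 0.0668, limma). Over all 9 arrays 8 receptors were higher and 3 lower, where 1699 of all 10177 genes were higher and 1812 lower. Of the 3, Itga8, the chain of a tenascin and osteopontin receptor, lost its call without the untransduced null array (adjusted p = 0.0707, limma) and without the null GFP array (adjusted p = 0.0575, limma).

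Of 16 collagens and collagen-modifying genes, 1 was higher, Plod2, a lysyl hydroxylase, by 1.90 (adjusted p = 0.00059, limma), and 15 did not pass, with a median change of 0.14. Of 17 TGF-beta genes 5 were higher and 4 lower. Ltbp2, a microfibril protein of the latent TGF-beta binding family, was lower at -3.64 and Tgfbr3, the betaglycan co-receptor, at -1.59. Smad7, an inhibitory Smad, was higher by 2.11, a call that ended without the untransduced null array (2.01) and without the null GFP array (2.21). Tgfb3, a TGF-beta ligand, was higher by 1.30, and this call ended with no filter, with the compared groups only, without either null-line array and without the wild-type GFP array (adjusted p = 0.0613 to 0.228, limma). Over all 9 arrays 4 TGF-beta genes were higher and 6 lower, and Smad7 lost that call without the untransduced null array (adjusted p = 0.057, limma). Of 15 proteases and inhibitors 2 were higher and 2 lower, led by the stromelysin Mmp3 at -3.31 (adjusted p = 0.00424, limma). The 3 other calls, Adamts5, Timp2 and Ctsb, ended without the untransduced null array (adjusted p = 0.116, 0.142 and 0.16, limma), without the null GFP array (adjusted p = 0.228, 0.203 and 0.192, limma) and with the compared groups only, and those of Timp2 and Ctsb also without LacZ (adjusted p = 0.0914 and 0.111, limma), so Mmp3 alone kept its call. Over all 9 arrays 1 protease or inhibitor was higher and 3 lower, and among these Adamts4 lost its call without the untransduced null array (adjusted p = 0.0538, limma) and Ctsb without the null GFP array (adjusted p = 0.0521, limma). In the reconstitution and PREX2 comparisons none of these lists had a called gene. Of all 10177 genes, 1 was called for truncated PREX2 against vector controls and 0 in each of the other comparisons of that kind.

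The genes whose log2 signal followed each member most closely over the 9 arrays were named by Pearson r as a description, since all values share the same 9 arrays and the 2 lines set much of the range. For Thbs1 they were Meg3 (0.997), Stard8 (0.992) and Pde5a (0.987). For Thbs2 they were Tcaf2 (0.992), Usp53 (0.988) and Zdhhc20 (0.987). Thbs3 was followed by Scara5 (0.994), Tmem176b (0.991) and Lrba (0.989), and Postn by Synpo (0.978), Col4a5 (0.976) and Aldh3b1 (0.973). Sparc was followed by H2ac19 (0.991), 4931406C07Rik (0.973) and Pigp (0.9725). Over the 9 arrays Tnc had no close follower, with Timp3 first at 0.847, but within the 6 wild-type arrays Gpr135 reached 0.981. Within the 6 wild-type arrays, Meg3 stayed among the first 3 for Thbs1 (0.996), Tcaf2 for Thbs2 (0.984) and 4931406C07Rik for Sparc (0.998). The low GFP array can set much of such values. Between Thbs1 and Thbs2, r was 0.73 over the 6 wild-type arrays and -0.66 without the GFP array.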

How the data were processed

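Per the submitters' processing notes, the authors deposited MAS5 signal intensities, with version and scaling: not given in the sources used here. The 2% trimmed mean of the deposited intensities was 500.0 on every array and the medians were 56.3 to 68.7. From 45101 probe sets 64 controls were left out. The platform annotation gave 1 symbol for 34945, several for 932 and none for 9160, and 34741 were matched to RefSeq (GRCm38.p6). A probe set listing a member with another symbol was left out (1), and Spp1 is not reported here. Array coordinates were not used.

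Signals plus 25 were put on the log2 scale and fitted with limma 3.58.1 in R 4.3.3, with 5 group means (null line, reconstituted, vector control, full-length and truncated PREX2), an intensity trend and 4 residual degrees of freedom, over 19090 probe sets with a mean of at least 100. Tests were two-sided, with Benjamini-Hochberg adjustment over all of them at 0.05, and the fit was tested on simulated data. The comparison over all arrays gave each group mean within a line the same weight, whatever its number of arrays. All member probe sets were named whatever their value. List genes were the called ones with the largest change, up to 4 a list. Likeness genes were the 3 highest by r among genes that ranged by at least 1 in log2 signal over the arrays. Alternatives were offsets of 5 and 100, filters of 0 and 200, quantile normalization, no trend, the compared groups only and leaving out each array. Members and lists were chosen with earlier results of these data known.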

Additional observations from a re-analysis of the deposited data

Results flagged for a closer look

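The wild-type GFP array stood apart from the other 5 wild-type arrays at 2 of the 12 member probe sets. At Thbs1 1460302_at its gap to the nearest array was 0.645 of the range over the 6 arrays, and at Thbs2 1422571_at 0.684, both above Dixon's 95% critical value. Chance alone gives about 1 such case in 20 groups, and the 12 sets tested share the same arrays.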

How the results depend on the processing

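Thbs2 was called in both comparisons of the lines under every alternative run, at all 3 probe sets. For 85 log2 changes of members and list genes, the alternatives gave 1007 pairs of a change and a setting. Of these pairs 931 kept direction and side of the threshold, 42 lost a call, 5 gained one and 29 turned sign. None of the 29 came from a called value, and the alternatives for list genes were chosen after seeing the data.

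The count of members called ranged from 3 to 7 in the null line against vector controls and from 0 to 1 in truncated PREX2 against vector controls when 1 array was left out. Over all probe sets the first comparison called 3753, 1834 with the compared groups only, and 1011 to 4522 without 1 array; all 9 arrays called 6536, and 4127 to 7559 without 1 array. Reconstitution called 0, and 1 under quantile normalization and 233 with the compared groups only. Truncated PREX2 called 1, and 0 to 117 without 1 array; full-length PREX2 called 0, and up to 3. 

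Quantile normalization turned Sparc 1458204_at to -0.13 in the null line against vector controls, Sparc 1416589_at to 0.15 over all 9 arrays, Thbs2 1447862_x_at to 0.027 on reconstitution, and Postn to 0.054 and Sparc 1416589_at to 0.096 for truncated against full-length PREX2; the cause was not tested. Without 1 array, the null line against vector controls ranged from -1.23 to 0.029 for Thbs3, -0.19 to 0.49 for Postn, -0.086 to 0.27 for Sparc 1416589_at and -0.078 to 0.14 for Sparc 1458204_at. Over all 9 arrays the ranges were -0.092 to 0.026 for Sparc 1416589_at, -0.019 to 0.20 for 1448392_at and -0.31 to 0.22 for 1458204_at. Thbs2 1447862_x_at ranged from -0.070 to 0.058 on reconstitution. Truncated PREX2 against vector controls ranged from -0.28 to 0.91 for Thbs1 1460302_at, -0.099 to 1.16 for Thbs3, -0.098 to 0.58 for Postn, -0.077 to 0.28 for Sparc 1416589_at and -0.24 to 0.28 for Tnc 1416342_at. Full-length PREX2 ranged from -0.41 to 0.78 for Thbs1 1460302_at, -0.054 to 0.62 for Postn, -0.041 to 0.31 for Sparc 1416589_at and -0.31 to 0.21 for Tnc 1416342_at. Truncated against full-length ranged from -0.031 to 0.35 for Thbs2 1447862_x_at, -0.24 to 0.091 for Thbs3, -0.11 to 0.045 for Postn and -0.13 to 0.088 for Sparc 1416589_at.

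No paired analysis was possible because the labels give no replicate numbers. A lone array was assumed to vary like the other groups. Signals near the offset, as at Tnc 1456344_at, have folds that depend on it.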
